A study of Mus musculus with 6 samples.

Results

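The miRNAs described here are those with late miRBase numbers, from 1800 upwards, which entered the miRNA catalogue when deep sequencing of small RNA was already in use. They were chosen by name alone: every miRNA of the authors' table whose number is 1800 or more was kept with any letter, arm or star, except miR-3070, miR-3071, miR-3072 and miR-3107. This gave 98 of the 689 listed miRNAs and left 591 others. The names nearest to the limit were miR-1839-5p and miR-1839-3p inside it, at 67.6 and 8.46 reads per 1000000 miRNA reads (RPM), and miR-1306-3p outside it, at 0.204 RPM.

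The cells were embryonic mouse cardiomyocytes (EMCMs), primary heart muscle cells taken from wild type embryos at stage E16.5. All 6 cultures grew on flexible plates coated with collagen I. In 3 of them the plate was left static, and in the other 3 it was stretched cyclically by 16% at 1 Hz, in both cases for 24 hours. The labels give the strain as Swiss Webster, while the study's methods name CD1. Neither source used here says whether embryos were pooled for a culture. Small RNA was sequenced to ask which miRNAs respond to stretch. The values used here are 1 mean abundance for each miRNA. They name no sample and were read as pooled by the authors over both groups. So read, they describe the cultures as a whole and not the response to stretch. The difference between stretched and static cultures is not analysed here, because the authors' table gives it only as the result of their own comparison. Each mean was read as the log2 of a miRNA's share of all miRNA reads, and RPM is that share multiplied by 1000000. Because no value per culture was used, sequencing depth is unknown here and no SD, interval or test can accompany a value.

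A canonical miRNA is cut from a hairpin first by Drosha in the nucleus and then by Dicer in the cytoplasm, and a strand of the resulting duplex is loaded into an Argonaute protein, where its seed pairs with target mRNAs. A mirtron takes another path: its hairpin is a whole short intron, released by splicing without Drosha. Other small RNAs of miRNA size come from tRNAs and from the nucleolar and Cajal body RNAs that guide chemical changes of other RNAs (snoRNAs and scaRNAs), and a catalogue built from sequencing can hold them as miRNAs.

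The hairpins of 4 of the 5 most abundant members overlap genes for other small RNAs, and they are shown first for that reason. The remaining one, that of miR-1943, lies in an intron. Mir1983 (GRCm38 chr13:21896918-21897049, minus strand) contains an isoleucine tRNA gene, and Mir1839 lies in a scaRNA gene. Mir1843a and Mir1843b lie in Scarna3b and Scarna3a. All sequences given here are RefSeq's for GRCm38.p6, written 5′ to 3′. In the following hairpins the capitals mark the annotated mature miRNA.
Mir1983: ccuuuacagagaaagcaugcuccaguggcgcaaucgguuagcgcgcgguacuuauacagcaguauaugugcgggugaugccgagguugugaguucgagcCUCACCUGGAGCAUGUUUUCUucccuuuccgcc
Mir1839: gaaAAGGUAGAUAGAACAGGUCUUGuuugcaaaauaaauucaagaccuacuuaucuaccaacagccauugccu
Mir1843a: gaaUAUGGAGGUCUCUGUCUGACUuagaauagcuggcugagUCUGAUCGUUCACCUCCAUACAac
Mir1843b: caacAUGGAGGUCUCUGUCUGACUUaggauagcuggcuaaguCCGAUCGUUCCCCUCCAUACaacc

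The mature forms whose names in the authors' table match a single RefSeq arm are shown next for the same hairpins and for Mir3069, with the seed (bases 2 to 8) in capitals. miR-1843-5p is RefSeq's miR-1843a-5p.
miR-1983: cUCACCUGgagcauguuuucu
miR-1839-5p: aAGGUAGAuagaacaggucuug
miR-1843a-5p: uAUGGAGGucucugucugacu
miR-1843a-3p: uCUGAUCGuucaccuccauaca
miR-1843b-5p: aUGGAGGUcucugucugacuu
miR-3069-5p: uUGGCAGUcaagauauuguuuagc
miR-3069-3p: uUGGACACuaaguacugccaca
miR-1843-5p and miR-1843b-5p share a run of 20 bases, from base 2 of the former and base 1 of the latter. The shift by 1 base gives them different seeds, AUGGAGG and UGGAGGU. Reads from these hairpins could be split between both names by the authors' counting, so the level of each is uncertain. No other member shared 18 or more bases with another listed miRNA among the 46 members whose sequence is known.

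The 3 hairpins that fill an intron from end to end are the mirtrons. The hairpins of Mir1981 and Mir1982 are shown with their annotated mature arms in capitals. Mir1981 starts with the mature 5p arm at the first base of the intron, and Mir1982 ends with the mature 3p arm at its last base.
Mir1981: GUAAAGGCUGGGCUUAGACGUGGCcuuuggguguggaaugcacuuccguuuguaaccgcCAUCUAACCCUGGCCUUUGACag
Mir1982: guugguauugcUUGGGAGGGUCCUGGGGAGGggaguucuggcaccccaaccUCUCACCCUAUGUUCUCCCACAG
Mir3102 gives 4 mature forms in RefSeq, with the seed in capitals. They start 0, 22, 59 and 80 bases into the intron, so that each pair on one side of the hairpin lies end to end.
miR-3102-5p: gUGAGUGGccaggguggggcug
miR-3102-5p.2: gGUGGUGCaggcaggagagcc
miR-3102-3p.2: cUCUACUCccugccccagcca
miR-3102-3p: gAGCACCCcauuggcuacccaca
miR-3082-3p stands for the hairpins with a single end at an intron end. Its last base is the last base of an intron of Stub1, and it closes with the CAG of the splice acceptor site.
miR-3082-3p: cACAUGGCacucaacucugcag

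The members were low in EMCMs. The median log2 share of the 98 members was -21.06, or 0.459 RPM, against -17.86, or 4.20 RPM, over all 689 listed miRNAs. The quartiles of the members were -23.20 and -18.04. In all, 36 members (36.7%) lay above 1 RPM, against 441 of all listed miRNAs (64.0%). Above 10 RPM were 12 members (12.2%), against 294 listed miRNAs (42.7%). Only miR-1983 lay above 100 RPM (1.02% of the members), a level passed by 146 listed miRNAs (21.2%). Together the members held 801 RPM, which is 0.0804% of the summed abundance.

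**Figure D1:**
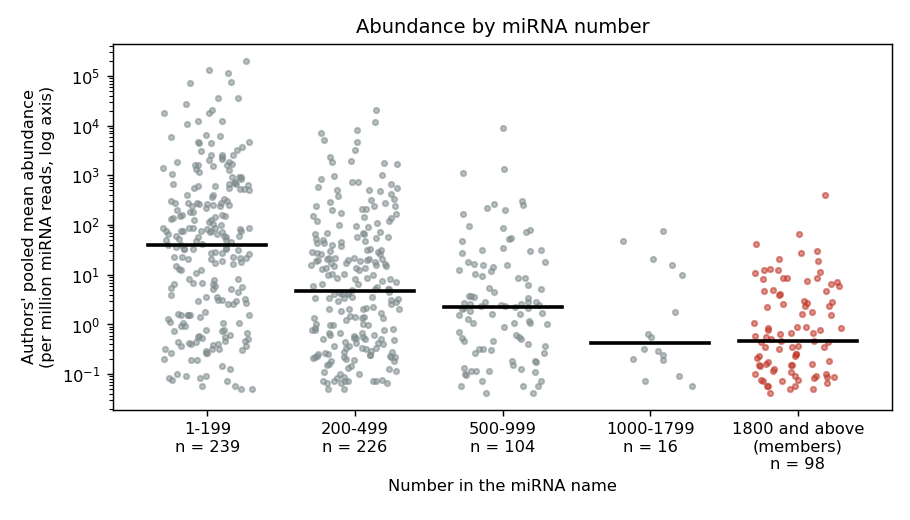
Each point is a listed miRNA, placed by the band of its number on the horizontal axis and by the authors' pooled mean abundance in RPM on a logarithmic vertical axis, and the bars are the band medians. The medians were 40.6 RPM for miR-1 to miR-199, 4.74 for miR-200 to miR-499, 2.21 for miR-500 to miR-999, 0.420 for miR-1000 to miR-1799 and 0.459 for the members. The 25 extreme low values, 7 of them members, count in n and in the medians and are not drawn, let-7 is counted in the first band, and the 6 names of the excluded numbers are left out.

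The plot of abundance by number shows that the members' median was close to that of the 16 miRNAs from miR-1000 to miR-1799, and below those of the 3 earlier bands. Among the members themselves, the 37 below miR-2000 had a median of 0.897 RPM and held 83.0% of the members' sum. The 52 from miR-3000 to miR-3199 had a median of 0.537 RPM. The 4 from miR-3400 to miR-3499 had a median of 0.105 RPM, and the 5 from miR-5000 to miR-5199 one of 0.0510 RPM. No member numbered above miR-3199 reached 1 RPM. The highest of these late numbers was miR-5128 at 0.783 RPM, from an intron of Strbp, which encodes an RNA-binding protein.

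For scale, the cardiac miRNAs miR-208b, miR-133a and miR-208a-3p lay above every member. miR-208b stood at 11734 RPM and rank 15 of 689, and miR-208a-3p at 747 RPM. miR-133a stood at 1860 RPM and miR-499 at 214, below miR-1983, and miR-133b at 10.6 was level with miR-3102. The bare name miR-1 was not found. The hairpins Mir1a-1, Mir1a-2 and Mir1b were matched to listed names, whose values are not given here. Of the miRNAs that mark other cells, miR-143 of smooth muscle stood at 133295 RPM and miR-126-5p of endothelium at 4642. Further entries for these cells were lower, with miR-145 of smooth muscle at 694 RPM and miR-126-3p of endothelium at 129. miR-122 of liver (0.600 RPM) and miR-451 of red blood cells (0.869 RPM) were low. How far cells other than cardiomyocytes add to the members' values was not tested.

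Of the 98 members, 93 could be placed by name on 73 annotated hairpins. The 5 that could not were miR-1965 (3.02 RPM), miR-3096b-3p (2.56), miR-3096b-5p (0.674), miR-1935 (0.114) and miR-5097 (0.0510). An intron of a gene on the same strand held 38 hairpins (52.1%), 21 (28.8%) overlapped an annotated exon, and 14 (19.2%) lay outside genes on their strand, Mir1983 with its tRNA among them. Among the 364 hairpins of the other listed miRNAs, 178 (48.9%) were intronic, 80 (22.0%) overlapped an exon and 106 (29.1%) lay outside genes. A gene for another small RNA was overlapped by 8 member hairpins (11.0%) and by 1 of the others (0.275%), Mir664 in Snora36b. Both ends coincided with the ends of an intron in 3 member hairpins (4.11%) and in 1 of the others (0.275%), Mir877 in Abcf1. These shares are descriptions.

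**Figure D2:**
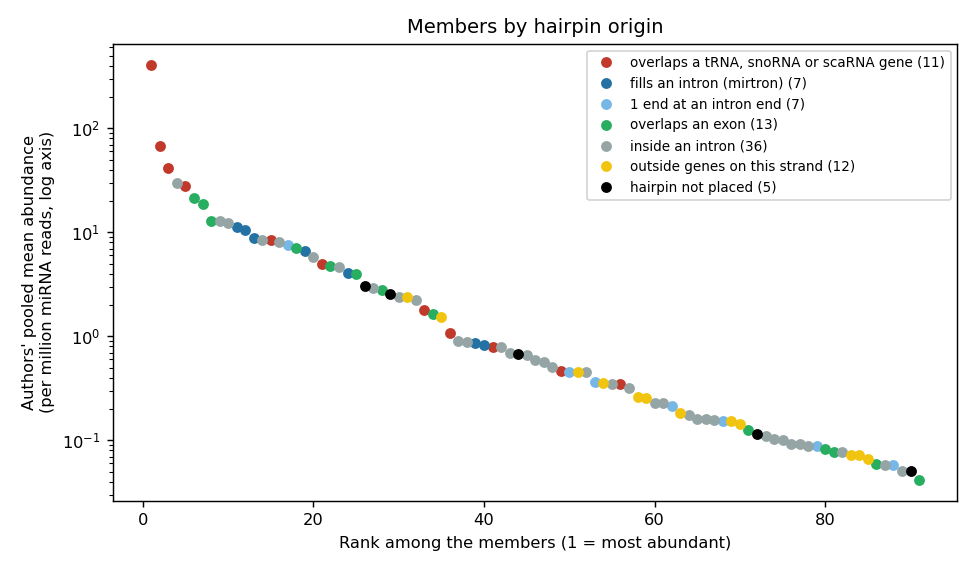
The 91 members without an extreme low value, ordered by rank on the horizontal axis, with the authors' pooled mean abundance in RPM on a logarithmic vertical axis and the colour giving the origin of the hairpin (number of members in parentheses). The first 3 members, at 409, 67.6 and 41.4 RPM, overlap genes for other small RNAs, and the other members outside genes stay at or below 2.39 RPM.

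Each member was counted in 1 origin group: small RNA genes first, then mirtrons, single intron ends, exon overlap, introns and the rest. So grouped, the 11 members whose hairpins overlap a tRNA, snoRNA or scaRNA gene held 70.5% of the members' sum. Their median was 4.92 RPM. All 11 lay above 0.1 RPM, as did all 7 mirtron products, 75 of the 98 members (76.5%) and 613 of the 689 listed miRNAs (89.0%). The 7 mirtron products had a median of 6.57 RPM and held 5.38% of the sum. They come from only 3 hairpins, most of them from Mir3102 and the others from Mir1981 and Mir1982. The 14 members with exon overlap had a median of 2.14 RPM, the 40 intronic members one of 0.336 and the 14 members outside genes one of 0.169, with miR-1983 counted among the small RNA overlaps. The 7 members whose hairpin meets an intron end on 1 side had a median of 0.215 RPM. The plot of members by origin shows the steep fall behind miR-1983: the top 2 members held 59.6% of the members' sum, the top 5 held 72.0% and the top 10 held 81.8%.

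miR-1983 was the most abundant member, at 409 RPM and rank 88 of 689, and alone held 51.1% of the members' sum. Its hairpin of 132 bases, shown above, holds the whole of the tRNA gene n-TItat14 (chromosome 13, 21896938 to 21897031, 94 bases), one of the genes for the tRNA that carries isoleucine. Of the 21 bases of the mature form, 13 lie inside the tRNA and 8 lie beyond the end of it that is nearer to the hairpin's 3′ end. The annotation used here gives no strand for the tRNA. The letters GUUCGANNC of the B box, an internal promoter element of tRNA genes, were searched on both strands. They were found on the strand of the Mir1983 hairpin and not on the reverse one, and 5 of 1005 RefSeq mouse hairpins (0.498%) held them on their own strand. The seed of miR-1983, UCACCUG, is shared with miR-412-3p, an arm of another listed hairpin.

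Next came the members from scaRNA genes, which guide modification of the RNAs of the splicing machinery. miR-1839-5p stood at 67.6 RPM (rank 172) and miR-1839-3p at 8.46. GENCODE annotates Mir1839 itself as a scaRNA of 127 bases (chromosome 7, 81529855 to 81529981), within the noncoding gene 2900076A07Rik. RefSeq gives a hairpin of 73 bases from 81529916 to 81529988, and both share 66 bases. It was the 1 hairpin whose coordinates differed between the annotations, which gave the same coordinates for 64 others.

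miR-1843b-5p stood at 41.4 RPM (rank 201) and miR-1843-5p at 28.0 (rank 226), and miR-1843-3p at 1.79. Mir1843b (chromosome 1, 159340358 to 159340423, plus strand) lies in Scarna3a within an intron of Cop1, a ubiquitin ligase gene. Mir1843a (chromosome 12, 80391613 to 80391677, minus strand) lies in Scarna3b within an intron of Dcaf5. The mature sequences of both miR-1843 arms and of miR-1843b-5p were found in the annotated Scarna3b and Scarna3a transcripts, respectively. Mir3069 (chromosome 12, 105031077 to 105031141, minus strand) lies in Scarna13 within an intron of Snhg10, a noncoding host gene of small RNAs. Its arms were lower, with miR-3069-3p at 1.08 and miR-3069-5p at 0.460 RPM.

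The snoRNA overlaps gave lower values than miR-1839-5p and the miR-1843 5p arms. miR-3096-5p stood at 4.92 RPM (rank 336), and GENCODE types its hairpin as a snoRNA in an intron of AI506816 (chromosome 5, 23710991 to 23711061). miR-3084 stood at 0.787 and miR-3084* at 0.350 RPM. They can come from either of a pair of hairpins on chromosome 19, Mir3084-1 in the snoRNA gene Gm23658 within an intron of Cbwd1 and Mir3084-2 in Snora19 within an intron of Eif3a, a translation initiation factor gene. RefSeq lists the same hairpin sequence for both, so their reads cannot be told apart.

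The mirtron products were of moderate level for this set of miRNAs. miR-1981 stood at 11.3 RPM (rank 287) and miR-1981* at 8.81 (rank 297). Mir1981 (chromosome 1, 184822407 to 184822488) is an intron of 82 bases in Marc2, which encodes a mitochondrial reductase. From the 104 bases of the Arhgef17 intron that is Mir3102 (chromosome 7, 100882306 to 100882409), miR-3102 stood at 10.6 RPM, miR-3102-3p.2 at 6.57, miR-3102-5p.2 at 4.04 and miR-3102* at 0.831. All 4 names of this hairpin were thus listed, and miR-3102-3p.2 and miR-3102-5p.2 lay between miR-3102 and miR-3102* in level. Names without an arm do not say which side of the hairpin they come from, so miR-3102 and miR-3102* cannot be tied to the 5p or the 3p form. miR-1982.1, from the 74 bases of an Oaz1 intron (chromosome 10, 80828797 to 80828870), stood at 0.864 RPM. Oaz1 encodes antizyme, which lowers polyamine synthesis.

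**Figure D3:**
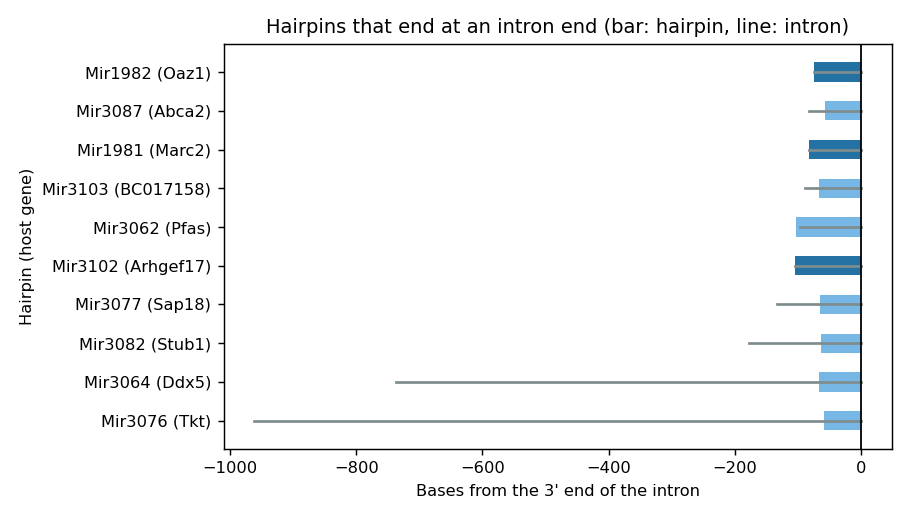
Each hairpin (bar) and the intron it lies in (line), drawn to scale with distance in bases from the intron's 3′ end, at 0, and labelled with the host gene. Dark bars are the 3 hairpins that fill the intron, and light bars are the 7 that meet it within 5 bases at the 3′ end only, in introns of 82 to 962 bases.

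The map of hairpins and introns shows 7 further hairpins that met an intron end within 5 bases on 1 side, and in all 7 it was the 3′ end, next to the downstream exon. Of the 4 such hairpins among the other listed miRNAs, 2 met the 3′ end. miR-3082-3p from Stub1, a ubiquitin ligase gene, led them at 7.61 RPM (rank 310). The other 6 lay at 0.457 RPM or lower. They were miR-3076-3p from Tkt (0.457), miR-3103 from BC017158 (0.368), miR-3062 from Pfas (0.215), miR-3077 from Sap18 (0.155), miR-3087 from Abca2 (0.0878) and miR-3064-5p from Ddx5 (0.0586). Tkt encodes transketolase of the pentose phosphate pathway and Pfas an enzyme of purine synthesis, while Ddx5 encodes an RNA helicase that takes part in miRNA processing. The mature 3p form of Mir3082, Mir3077, Mir3103 and Mir3076 ended exactly at the last base of the intron, and that of Mir3064 and Mir3087 ended 1 base before it. Mir3062 overshot its intron of 97 bases by 6 bases at the 5′ end and by 2 at the 3′ end. Of the 10 hairpins at intron ends, 8 also overlapped an annotated exon of the same gene by at least 1 base, and Mir3082, Mir3064, Mir3103 and Mir3076 each run 1 base past the intron's 3′ end.

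Among hairpins inside introns, away from their ends and outside small RNA genes, miR-1943 was the most abundant, at 30.1 RPM (rank 220). It comes from an intron of Tmem184b, which encodes a membrane protein. miR-1964-3p, from an intron of the zinc finger gene Zfp84, stood at 12.7 and miR-1947, from the metallopeptidase gene Lmln, at 12.2. miR-1933-3p stood at 8.53 RPM, from an intron of Ugp2, which encodes the enzyme that makes UDP-glucose for glycogen. miR-1948, in an intron of Ttc39c, stood at 8.10, and miR-3109, in an intron of Anxa2 (annexin A2), at 5.84. miR-3060 from Rnf215 (4.66) and miR-1960 from Hadhb (2.90), a gene of mitochondrial fatty acid oxidation, followed. The remaining intronic members above 1 RPM and outside small RNA genes were miR-3099 from Usp29 (2.40) and miR-1968 from Grtp1 (2.22). Just below came miR-1954 at 0.897, from an intron of Eng, which encodes the endothelial coreceptor endoglin.

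Leaving aside hairpins in small RNA genes or at intron ends, the members with exon overlap were led by the arms of Mir3068 and Mir3061. miR-3068* stood at 21.2 RPM (rank 242) and miR-3068 at 13.0 (rank 279). Their hairpin lies in an exon of the noncoding gene Gm29362 and in an intron of Alkbh1, a nucleic acid demethylase gene. miR-3061-3p stood at 18.7 RPM (rank 253) and miR-3061-5p at 2.77, from an exon of Ppp2ca, the catalytic subunit of protein phosphatase 2A. miR-3057-5p in Apba3 (7.08), miR-3063 in Igf2bp1 (4.80), miR-3098-5p in Mrpl51 (3.96) and miR-1930 in Ube2g2 (1.66) were the other members of this kind above 1 RPM. Of the 14 members outside genes and outside small RNA genes, miR-1934 (2.39) and miR-3089-3p (1.52) passed that level.

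The arms of Mir3061 and Mir3068 are shown with their seeds in capitals, because these hairpins gave reads from both arms at 2.77 RPM or more.
miR-3061-5p: cAGUGGGCcgugaaagguagcc
miR-3061-3p: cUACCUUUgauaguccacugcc
miR-3068-5p: uUGGAGUUcaugcaaguucuaacc
miR-3068-3p: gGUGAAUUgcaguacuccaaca
The authors' names miR-3068 and miR-3068* do not say which arm each is. By old convention the star marks the lesser product of a hairpin, and miR-3068* was the only starred member above its partner among 9 such pairs.

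**Figure D4:**
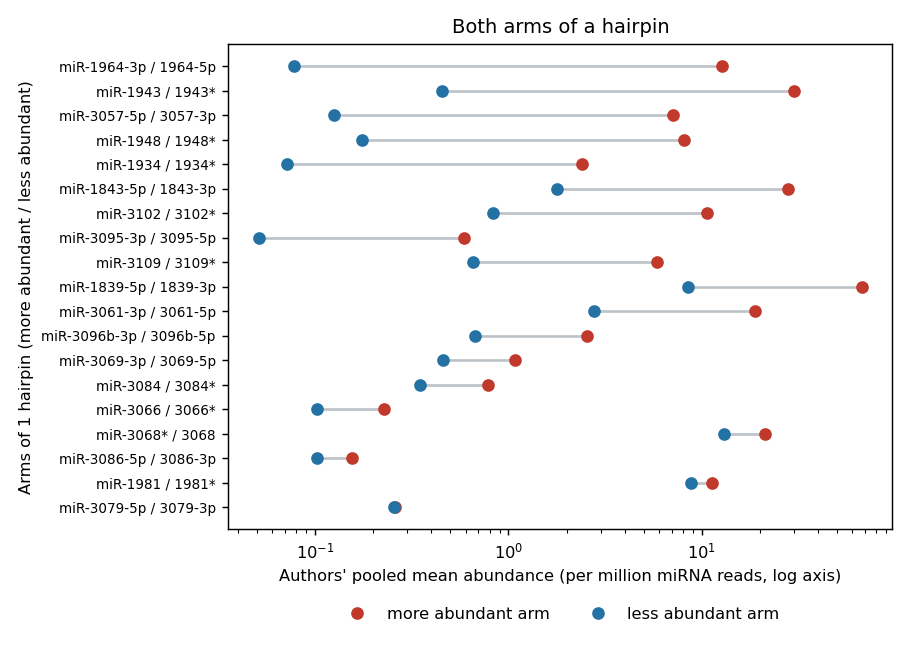
Both arms of the 19 member hairpins with both arms measured, with the authors' pooled mean abundance in RPM on a logarithmic horizontal axis. Red points are the more abundant arm and blue points the less abundant one, and the gaps run from 0.01 log2 units for miR-3079 at the bottom to 7.36 for miR-1964 at the top.

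Both arms were listed for 20 member hairpins, and 19 had a usable value for both. The median difference between the more and the less abundant arm was 3.00 log2 units, against 4.04 over 209 hairpins of the other listed miRNAs. Under 1 log2 unit lay 4 member hairpins (21.1%) and 26 of the others (12.4%). The widest gaps were those of miR-1964-3p over miR-1964-5p (12.7 against 0.0775 RPM), miR-1943 over miR-1943* (30.1 against 0.451) and miR-3057-5p over miR-3057-3p (7.08 against 0.125). The mirtron pair of miR-1981 and miR-1981* was among the narrowest, at 0.36 log2 units. Another mirtron pair, miR-3102 and miR-3102*, differed by 3.68 log2 units. The scaRNA-overlapping pair of miR-1839-5p and miR-1839-3p differed by 3.00 log2 units and that of miR-1843-5p and miR-1843-3p by 3.97. The scaRNA-overlapping pair of miR-3069-3p and miR-3069-5p differed by 1.23, and the snoRNA-overlapping pair of miR-3084 and miR-3084* by 1.17. Where the names give the arm, the 5p arm was higher in 5 hairpins and the 3p arm in 5. With 1 pooled value per arm, no error can be set beside these differences.

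Of the 98 members, 46 could be tied to 1 RefSeq mature sequence, 37 have names that do not say the arm and 15 had no sequence in the table used. The 46 known forms were 20 to 26 bases long, with a median of 22 and a median GC content of 52.3%. They began with U in 16, with C in 15, with A in 10 and with G in 5. Besides miR-1983, 1 of them shared its seed with an arm of another listed hairpin: miR-3473d (0.321 RPM) has the seed CACUGAG of miR-1947-3p and miR-674-5p. miR-3473b, at 0.0722 RPM, is a repeated sequence that was found in annotated transcripts of 358 genes, so its reads cannot be tied to 1 gene. Mir3074-1 and Mir3074-2 lie on the strand opposite to Mir24-1 and Mir24-2 and overlap them, and the members from these hairpins, miR-3074-5p (0.566 RPM) and miR-3074-1-3p (0.685), were both below 1 RPM.

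At the low end, 7 members had values between -36.70 and -35.84 on the log2 scale, separated from the lowest of the other values by a gap of 11.12 log2 units that no listed miRNA fills. They were miR-1955-3p, miR-3080-3p, miR-1946b, miR-5113, miR-1932, miR-1950 and miR-1933-5p. The same holds for 18 of the other listed miRNAs, so that 7.14% of the members and 3.05% of the others stood there. Such a value cannot be read as a level, and the authors' sources used here do not say how it arose. Without them the members' median was -20.69, or 0.589 RPM, against 5.14 over all listed miRNAs. miR-1933-5p is the partner of miR-1933-3p, which stood at 8.53 RPM. The lowest member above the gap was miR-5103 at 0.0416 RPM, from an exon of the noncoding gene Gm37233.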

How the data were processed

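The authors sequenced small RNA of 3 static and 3 stretched EMCM cultures. Per the labels and methods, TruSeq small RNA libraries were sequenced, tags of 18 to 30 nt were kept and mapped with Bowtie2, and counts under the same gene ID were added up. For the comparison the authors named edgeR in the methods and DESeq in the labels' processing notes, and versions, genome build and annotation are not given in the sources used here. The methods name more samples per group than the labels, so the number of libraries behind a value is not known.

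The authors deposited 1 table of 689 miRNAs. Its mean abundance was deposited by the authors as the log2 share of miRNA reads, pooled over both groups, and raising 2 to these values gave shares with a sum of 0.995. The other 4 columns hold the authors' comparison of stretch with static (fold changes, P value and FDR) and were not used, so the test planned for values per sample was not run and the response to stretch is not reported. Depth and error per sample are unknown.

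Abundance in RPM was computed as 1000000 times the share, with no pseudocount or filter. Hairpins were matched by symbol or synonym to GENCODE vM21 (GRCm38), or else to RefSeq GRCm38.p6. Hosts lie on the same strand, and a hairpin meets an intron end within 5 bases. The rule for calling intron ends was checked on simulated distances alone, which does not test the search for introns or hosts. Members and lists were chosen with earlier results of these data known. Named are the 20 most abundant members, the extreme low values, hairpins with both arms, an arm of which is above 1 RPM, and members at intron ends, in small RNA genes or sharing a seed or 18 bases; other names, the remaining members above 1 RPM among them, were chosen after their values were seen. Alternatives were other abundance limits, tolerances and host rules, and leaving out or adding members. Python 3.11.15, numpy 2.4.6, pandas 2.3.3 and matplotlib 3.10.9 were used.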

Additional observations from a re-analysis of the deposited data

How the results depend on the processing

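The members above 1 RPM numbered 36; with limits of 0.1, 10 and 100 RPM they numbered 75, 12 and 1, by construction of the limit, and 29 with 1 value per hairpin. The members' share of the summed abundance, 0.0804%, became 0.0393% without miR-1983, 0.0237% without the 11 members that overlap a small RNA gene, and 0.276% with the numbers left out by the rule, 6 names that sum to 1950 RPM. These 3 changes follow from the members removed or added. Hairpins at 1 or both intron ends numbered 10, 5 when ends had to match exactly and 12 within 10 bases. Those at both ends numbered 3, 3 and 4. Host genes on the same strand held 59 hairpins, 55 with protein-coding hosts only and 63 with hosts on either strand. The median log2 share stayed between -21.07 and -20.69 under all 5 alternatives tried for it.

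No paired analysis was possible because the deposited table gives 1 mean per miRNA, read here as pooled. The fits of stretch against static were not run for the same reason. These were fits with a replicate block on the letters A, B and C or without each replicate in turn. Without values per culture, depth cannot be set against any level here. Names without an arm, old hairpin annotation and reads shared with tRNAs, scaRNAs and snoRNAs limit what a member's value counts.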

Other observations

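Some listed miRNAs of unusual origin are not members. miR-484, whose precursor is transcribed without Drosha cutting, stood at 726 RPM (rank 68) and miR-320 at 153 (rank 131), while the highest member, miR-1983, stood at 409. The mirtron miR-877, whose hairpin fills an intron of Abcf1, stood at 2.44 RPM and miR-877* at 2.79, below both arms of the member mirtron Mir1981 at 11.3 and 8.81. miR-664 and miR-664*, from a hairpin in Snora36b, stood at 2.51 and 1.07 RPM. miR-668 stood at 30.3, and miR-702 at 0.0415, the lowest value above the gap. miR-451, which is cut by Argonaute in place of Dicer, stood at 0.869 RPM. miR-1224 and miR-712 were not among the values analysed here. miR-1932 had the same log2 value as miR-138-1*, -36.69, and both are extreme low values.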
